A study of Mus musculus with 41 samples.

Results

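The insulin-like growth factor (IGF) axis was followed in bone through 10 genes: the ligand gene Igf1, the receptor genes Igf1r and Igf2r, the binding-protein genes Igfbp2, Igfbp3, Igfbp4, Igfbp5, Igfbp6 and Igfbp7, and Pappa, which encodes the protease PAPP-A. They were taken by gene symbol from a table of 43346 genes, and all 10 were found and passed the filter on low counts. The samples were tibial diaphyses of 41 INK-ATTAC mice on a C57BL/6 background. In these mice a promoter fragment of Cdkn2a (p16Ink4a) drives a caspase that the drug AP20187 (AP) joins into its active form, so that only cells in which the promoter is active should respond. All 3 groups carried the transgene: 12 young mice (6 to 12 months in the sample labels, marked as vehicle), 13 old mice on vehicle, and 16 that received AP at 10 mg per kg, both old groups for 4 months from the age of 20 months. Here they are called young, old vehicle and old AP mice, and each is named by its number in the labels. The bones had been centrifuged before the RNA was extracted. Each library held between 37028959 and 75942717 counts, with a median of 47774880.

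IGF1 is a growth hormone-dependent hormone from the liver that is also made within bone, where it acts on osteoblasts and their precursors. It signals through IGF1R, a receptor tyrosine kinase, while IGF2R binds IGF2 and carries it to lysosomes. In the extracellular space IGFs are held by IGFBPs, and PAPP-A cleaves IGFBP4 and so frees the bound ligand. IGFBP7 binds IGFs only weakly.

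The libraries held RNA of several cell types. All 9 osteocyte markers in the list used here were read in every group, and their summed level in CPM, counts scaled to a common library size, had a median of 1395 in young, 1513 in old vehicle and 1570 in old AP mice. Skeletal muscle markers, which bone itself should lack, were abundant and ranged from 9018 to 141700 CPM over the 41 mice. In none of the 264 pairs of mice within a group did the counts agree within sampling noise, so that each mouse was 1 replicate, and nothing in the labels names a batch. In bulk RNA of this kind, fewer cells of a type and less RNA per cell cannot be told apart.

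The members differed widely in level. Per kilobase (kb) of exon, the order by mean over all mice was led by Igfbp5 with 153 ± 31.5 CPM per kb (SD, n = 41), which lay above the next gene in all 41 mice. Igfbp7 (94.5 ± 20.9 CPM per kb) and Igfbp4 (94.5 ± 26.8 CPM per kb) came next and could not be ordered: Igfbp7 was the higher of the pair in 18 of 41 mice. Igfbp6 followed at 25.1 ± 14.1 CPM per kb and was above Igf2r (17.1 ± 2.59 CPM per kb) in 29 of 41 mice, so that this order too was within the spread. Below them stood Igfbp3 (11.2 ± 3.34 CPM per kb) and Igf1r (6.42 ± 1.29 CPM per kb). The ligand Igf1 reached 2.96 ± 0.887 CPM per kb, below Igf1r in 40 of 41 mice. Pappa (1.51 ± 0.524 CPM per kb) and Igfbp2 (0.76 ± 0.365 CPM per kb) were the lowest, with Pappa the higher in 37 of 41. In the count table, the gene model of Igf1r ends at position 68226780 of chromosome 7, before the end given by the GENCODE M21 annotation (68233668), and its level refers to the shorter model.

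**Figure D1:**
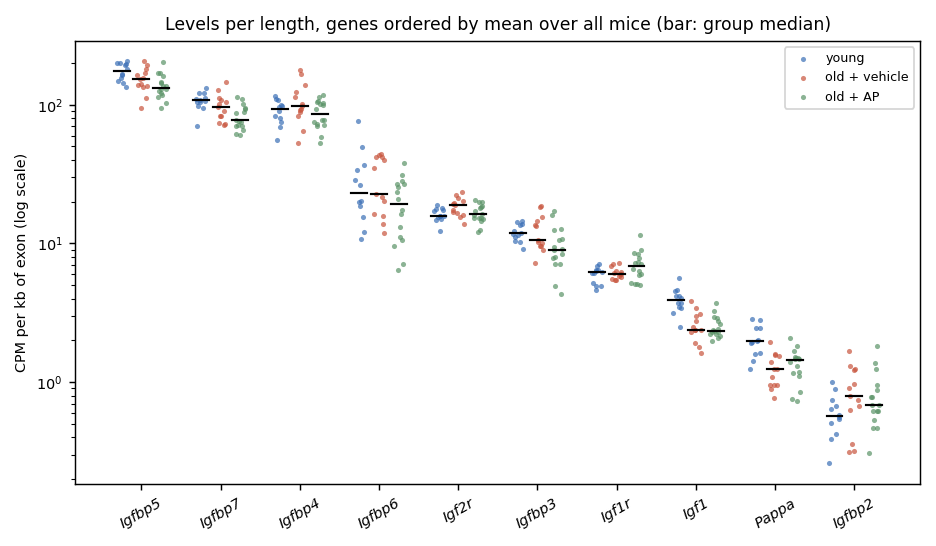
Level of each member in CPM per kb of exon (vertical log axis) in the 41 mice, with genes ordered from left to right by their mean over all mice; each point is a mouse and each bar a group median. Igfbp5 stands at the left with a mean of 153 CPM per kb and Igfbp2 at the right with 0.76 CPM per kb, and the points of Igfbp7 (60.3 to 147 CPM per kb) lie within those of Igfbp4 (52.9 to 177 CPM per kb).

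Igf1 was lower in old mice, whether they had received vehicle or AP. Igf1 (ENSMUSG00000020053, GRCm38 chromosome 10, 87858265 to 87937042, plus strand) encodes the ligand of the axis. In young mice it ranged from 24.8 CPM (mouse 34) to 55.6 CPM (mouse 36), with a median of 38.6 CPM. The old vehicle mice ranged from 15.9 to 38.3 CPM with a median of 23.7 CPM, and the old AP mice from 19.5 to 36.7 CPM with a median of 23.2 CPM. All 13 old vehicle mice lay below the young median, and 8 of them lay below every young mouse. Of the old AP mice, 16 of 16 lay below the young median and 10 below every young mouse, so that the groups still overlapped at their edges. Means were 38.9 ± 7.86 CPM (SD, n = 12) in young, 25.4 ± 6.44 CPM (SD, n = 13) in old vehicle and 25.2 ± 4.69 CPM (SD, n = 16) in old AP mice. The log2 fold change of old vehicle versus young mice was -0.61 (standard error 0.12, edgeR adjusted p = 0.000351), and the level fell by 34.6%. Old AP versus young mice, a comparison that uses the same young mice, gave -0.63 (standard error 0.11, edgeR adjusted p = 0.000169). An antisense gene, Igf1os, overlaps Igf1 and held 0 to 12 counts per mouse.

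The 250 bases before the RefSeq start of Igf1, a window inside the gene as the count table bounds it, are shown because Igf1 was the ligand that changed. The same window of the receptor gene Igf1r is shown beside it for contrast. Both are written 5′ to 3′ on the plus strand of GRCm38.p6, with matches to a searched motif in capitals. The windows are chr10:87860861-87861110 for Igf1 and chr7:67952007-67952256 for Igf1r.
Igf1: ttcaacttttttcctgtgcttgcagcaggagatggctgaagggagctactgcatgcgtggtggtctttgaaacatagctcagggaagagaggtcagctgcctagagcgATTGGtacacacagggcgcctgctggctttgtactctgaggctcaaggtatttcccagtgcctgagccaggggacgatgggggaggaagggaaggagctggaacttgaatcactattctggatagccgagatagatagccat
Igf1r: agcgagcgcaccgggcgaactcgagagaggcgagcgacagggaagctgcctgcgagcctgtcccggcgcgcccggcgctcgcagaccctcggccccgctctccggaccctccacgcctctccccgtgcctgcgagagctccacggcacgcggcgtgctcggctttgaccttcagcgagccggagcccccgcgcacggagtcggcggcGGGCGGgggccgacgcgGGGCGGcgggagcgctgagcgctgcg
Motifs were searched as letters on both strands, over 32817 such windows of RefSeq genes: the TATA box as TATAAA (in 12.4% of all windows), the CCAAT box under its own letters (33.8%), the GC box as GGGCGG (32.7%), the AP-1 motif as TGACTCA (4.46%), the RUNX motif as TGTGGT (14%), the FOXO motif as GTAAACA (3.16%) and the STAT motif as TTCNNNGAA (7.01%). The Igf1 window held 1 match, a CCAAT on the opposite strand whose first printed base lies 142 bases before the start, and 52.8% of its bases were G or C. Igf1r had 2 matches to the GC box letters, at 43 and 26 bases before the start, and 77.6% G or C. Windows were found for 9 of the 10 members, which had 10 windows in all, and not for Pappa. The GC box letters occurred in 4 of these 10 windows, those of the TATA box and the CCAAT box in 2 each, those of the AP-1 and RUNX motifs in 1 each, and those of the FOXO and STAT motifs in 0. No match overlapped that of another motif. A match of letters describes the window and is not a binding site.

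Pappa was the only other member called in either age comparison. Pappa (ENSMUSG00000028370, chromosome 4, 65124174 to 65357509, plus strand) ranged from 13.6 to 31.2 CPM in young mice (median 21.7 CPM), from 8.46 to 21.6 CPM in old vehicle mice (median 13.7 CPM) and from 8.02 to 22.8 CPM in old AP mice (median 15.8 CPM). Every old vehicle mouse and 15 of the 16 old AP mice lay below the young median, and 6 mice of each old group lay below every young mouse. Its log2 fold change was -0.70 (standard error 0.16, edgeR adjusted p = 0.00137) in old vehicle and -0.59 (standard error 0.15, edgeR adjusted p = 0.005) in old AP versus young mice, and the level fell by 38.6% and by 33.6%. Mean levels were 22.3 ± 5.69 CPM (SD, n = 12) in young, 13.7 ± 3.86 CPM (SD, n = 13) in old vehicle and 14.8 ± 4.08 CPM (SD, n = 16) in old AP mice.

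**Figure D2:**
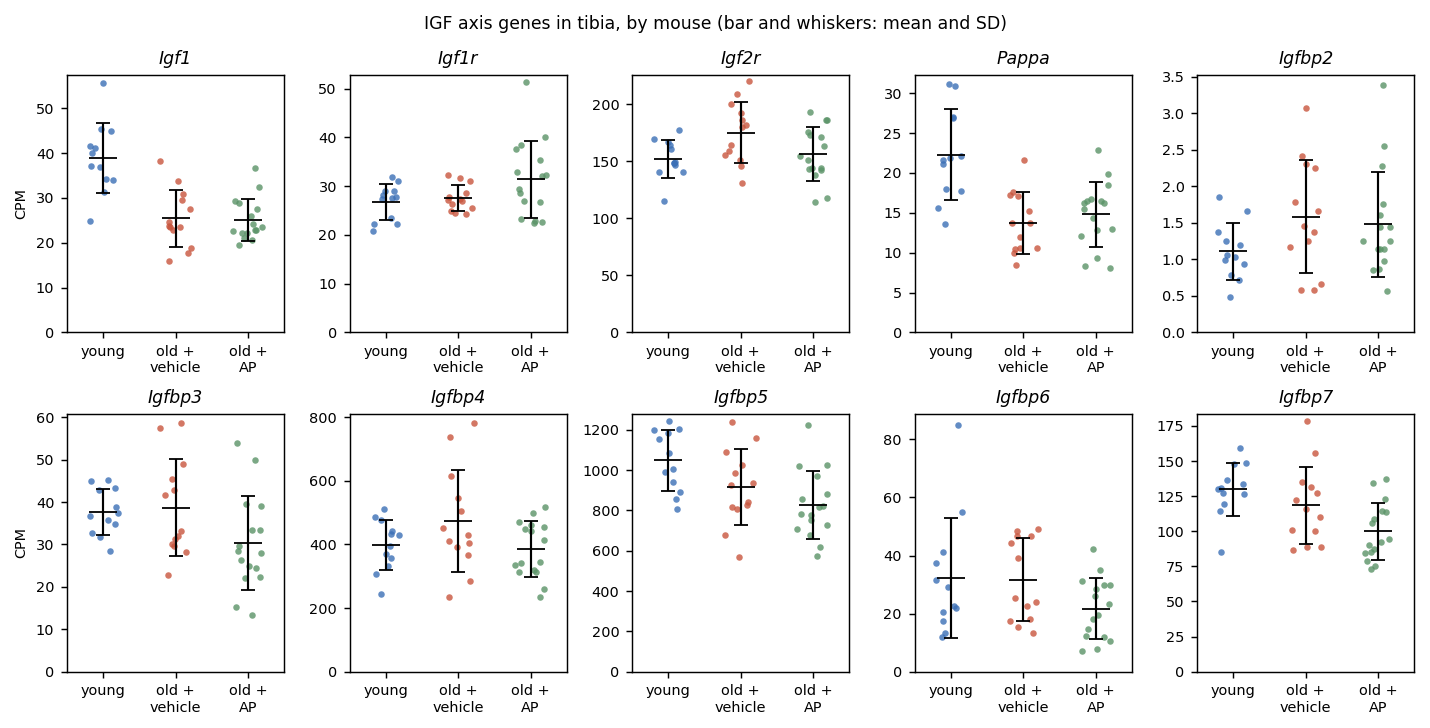
Level of each member in CPM (vertical axes, each from 0) in young, old vehicle and old AP mice; each point is a mouse, and the bar and whiskers are the mean and SD. Igf1 and Pappa are lower in both old groups than in young mice (Igf1 means 38.9, 25.4 and 25.2 CPM), while no other gene was called; for Igfbp5, 8 of 16 old AP mice also lie below every young mouse.

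A gene was called at a Benjamini-Hochberg adjusted p under 0.05 with a log2 fold change above 0.5 or below -0.5, and p-values were adjusted over all 19292 genes tested. In old vehicle versus young mice 2 of the 10 members were called, both lower. By this rule 9.06% of all genes tested were called and 4.76% were called lower. In old AP versus young mice the same 2 members were called of 10, beside 8.58% of all genes called and 4.85% called lower. By adjusted p alone, 19.4% of all genes passed in the first of these comparisons and 17.8% in the second. The median log2 fold change of the members was 0.0 in old vehicle versus young mice, where that of all genes was 0.01, and -0.33 in old AP versus young mice, where that of all genes was 0.02. Leaving out the 41 mice one at a time, Igf1 in old vehicle versus young mice ranged from -0.68 to -0.56 and Pappa from -0.77 to -0.65, and both were called in each of these fits.

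Marker genes of several cell types differed between the same groups. Of 9 marrow stromal cell markers (Cxcl12 the most abundant), 5 were called lower in old vehicle and 4 in old AP versus young mice. Their summed level ranged from 1418 to 2843 CPM in young, 793 to 2250 CPM in old vehicle and 1209 to 2035 CPM in old AP mice. Osteoblast markers were called lower for 3 and 6 of 10 genes in these 2 comparisons, and their summed level had a median of 69130 CPM in young, 41110 CPM in old vehicle and 32200 CPM in old AP mice. Chondrocyte markers were called lower for 3 of 8 tested genes in each comparison, although 5 of the 8 had log2 fold changes above 0 in old AP versus young mice (median 0.46). Their sums, in which Col11a2 was the most abundant, had medians of 3996 CPM in young, 1652 CPM in old vehicle and 1334 CPM in old AP mice. B cell markers were called lower for 7 and 1 of 9 genes and erythroid markers for 3 and 2 of 9, the latter with median sums of 10020, 6008 and 5746 CPM. Of 8 T cell markers 0 were called in old vehicle and 4 were called higher in old AP versus young mice, where mouse 18 had the highest sum (516 CPM, group median 72.2 CPM). In old vehicle versus young mice 2 of 12 skeletal muscle markers were called higher, and of the 9 adipocyte and the 9 osteocyte markers 2 each were called higher and 1 each lower. In old AP versus young mice 2 of 10 neutrophil markers were called higher, and of the 9 osteocyte markers 2 were called higher and 2 lower. Of 10 fibroblast and tendon markers, 1 was called higher and 2 lower in old vehicle and 2 lower in old AP versus young mice, with median sums of 839 CPM in young, 868 CPM in old vehicle and 766 CPM in old AP mice. All genes counted in these sums were read in every group. A fit with the mean level of the marrow stromal markers as a covariate, chosen after the data had been seen, gave different values for Igf1 and Pappa, a difference between the genes that was not tested. In it Igf1 kept a log2 fold change of -0.52 (edgeR adjusted p = 0.0336) in old vehicle and -0.54 (edgeR adjusted p = 0.00569) in old AP versus young mice. Pappa was at -0.08 (edgeR adjusted p = 0.764) and 0.01 (edgeR adjusted p = 0.957) in the same fit. With osteoblast markers as a covariate Igf1 was called in old vehicle versus young mice (-0.52, edgeR adjusted p = 0.00254) and missed the fold in old AP versus young mice (-0.48, edgeR adjusted p = 0.0247). Pappa was called in neither comparison in that fit (-0.44, edgeR adjusted p = 0.0142, and -0.18, edgeR adjusted p = 0.49). With erythroid, neutrophil and B cell markers as covariates neither gene was called: Igf1 was at -0.47 (edgeR adjusted p = 0.1) and Pappa at -0.33 (edgeR adjusted p = 0.426) in old vehicle versus young mice. Calls over all genes moved in these fits too. In old vehicle versus young mice 5.44% of genes were called with marrow stromal, 8.16% with osteoblast and 3.98% with erythroid, neutrophil and B cell covariates, and in old AP versus young mice 17.9%, 3.93% and 2.38%. These marker lists themselves differed with age, so that in such fits age and the makeup of the bone cannot be fully told apart.

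The receptors did not pass the rule in any comparison. Igf1r (ENSMUSG00000005533, chromosome 7, 67952859 to 68226780, plus strand), which transmits the IGF1 signal, ranged from 20.8 to 31.9 CPM in young mice (median 27.7 CPM) and from 24.2 to 32.3 CPM in old vehicle mice (median 27.2 CPM). The old AP mice spread more widely, from 22.4 to 51.4 CPM (median 30.8 CPM), with mouse 19 the highest and mouse 5 next at 40.01 CPM. Its log2 fold change in old AP versus old vehicle mice was 0.19 (standard error 0.10, edgeR adjusted p = 0.211), and 0.12 without mouse 19. Mouse 19 also had the highest summed neutrophil markers, 34330 CPM, and the highest erythroid markers of its group, 19240 CPM, and the part of these in its Igf1r level was not tested. Igf2r (ENSMUSG00000023830, chromosome 17, 12682406 to 12769664, minus strand), the receptor that clears IGF2, ranged from 115 to 177 CPM in young (median 149 CPM), 131 to 221 CPM in old vehicle (median 180 CPM) and 114 to 193 CPM in old AP mice (median 153 CPM). The old vehicle mice were the highest of the 3 groups in median, and 7 of 13 lay above every young mouse, with a difference of 0.20 on the log2 scale (standard error 0.08, edgeR adjusted p = 0.0866). Its antisense transcript Airn, which overlaps it, held 342 to 1382 counts against a median of 7250 for Igf2r, and without a stated strand setting their reads cannot be told apart.

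No binding protein was called in any comparison by the rule. Igfbp5 (ENSMUSG00000026185, chromosome 1, 72857932 to 72874884, minus strand), the most abundant of them and known as a matrix-bound IGF carrier in bone, ranged from 807 to 1245 CPM in young (median 1045 CPM), 570 to 1237 CPM in old vehicle (median 925 CPM) and 571 to 1225 CPM in old AP mice (median 800 CPM). The old AP mice were low, with 15 of 16 below the young median. Its log2 fold change versus young mice was -0.19 (edgeR adjusted p = 0.231) in old vehicle and -0.34 (edgeR adjusted p = 0.0228) in old AP mice, the latter past the adjusted p but short of the fold. Igfbp7 (ENSMUSG00000036256, chromosome 5, 77349240 to 77408045, minus strand), known in vessel walls, had its medians in the same order: 130 CPM in young, 116 CPM in old vehicle and 93.5 CPM in old AP mice. Its log2 fold change was -0.38 (edgeR adjusted p = 0.0114) in old AP and -0.13 (edgeR adjusted p = 0.44) in old vehicle versus young mice. By adjusted p alone 4 of 10 members passed in old AP versus young mice, all lower, beside 17.8% of all genes. Igfbp5 and Igfbp7 no longer passed with erythroid, neutrophil and B cell (edgeR adjusted p = 0.197 and 0.45), osteoblast (0.291 and 0.452) or marrow stromal markers (0.11 and 0.0578) as covariates. Igfbp7 overlaps Polr2b on the opposite strand, which had a median of 3831 counts against 5386 for Igfbp7.

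Igfbp4 (ENSMUSG00000017493, chromosome 11, 99041244 to 99054392, plus strand), the substrate of PAPP-A, was not called, but passed the rule in fits with some marker covariates. It ranged from 245 to 512 CPM in young (median 412 CPM), 234 to 783 CPM in old vehicle (median 430 CPM) and 235 to 518 CPM in old AP mice (median 378 CPM). The old vehicle group was the widest, and 4 of its 13 mice, led by mice 6 and 7, lay above every young mouse. Without covariates its log2 fold change in old vehicle versus young mice was 0.25 (standard error 0.15, edgeR adjusted p = 0.262). It was 0.52 (edgeR adjusted p = 0.00107) with osteoblast markers, 0.68 (edgeR adjusted p = 0.0342) with erythroid, neutrophil and B cell markers and 0.76 (edgeR adjusted p = 0.00296) with marrow stromal markers as covariates, and would be called higher in each. The 250 bases before its start, chr11:99040994-99041243 on the plus strand of GRCm38.p6, are printed since its window was the 1 of 10 with a TATAAA in the gene's own orientation. The match, in capitals, begins 28 bases before the start.
Igfbp4: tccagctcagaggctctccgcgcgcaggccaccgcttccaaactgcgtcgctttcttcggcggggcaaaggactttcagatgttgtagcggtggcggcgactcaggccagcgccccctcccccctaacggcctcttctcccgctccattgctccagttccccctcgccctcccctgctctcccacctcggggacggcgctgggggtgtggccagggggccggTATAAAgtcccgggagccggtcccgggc

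The remaining binding proteins varied widely within groups. Igfbp6 (ENSMUSG00000023046, chromosome 15, 102144362 to 102149511, plus strand), which prefers IGF2, ranged from 11.9 to 84.9 CPM in young mice, with mouse 40 far above the next at 55.1 CPM, from 13.3 to 49.2 CPM in old vehicle and from 7.14 to 42.2 CPM in old AP mice. Medians were 25.8, 25.3 and 21.3 CPM, and the groups overlapped over most of their range. The log2 fold change of Igfbp6 versus young mice was -0.03 (edgeR adjusted p = 0.959) in old vehicle and -0.57 (edgeR adjusted p = 0.153) in old AP mice. Igfbp3 (ENSMUSG00000020427, chromosome 11, 7206086 to 7213923, minus strand), the main carrier of IGFs in the circulation, ranged from 28.4 to 45.2 CPM in young mice (median 37.01 CPM), 22.7 to 58.5 CPM in old vehicle mice (median 33.1 CPM) and 13.4 to 54.0 CPM in old AP mice (median 28.2 CPM). Versus young mice it was at 0.03 (edgeR adjusted p = 0.915) in old vehicle and -0.32 (edgeR adjusted p = 0.154) in old AP mice on the log2 scale. Igfbp2 (ENSMUSG00000039323, chromosome 1, 72824503 to 72852474, plus strand), which neighbors Igfbp5 on chromosome 1 in the opposite orientation, was read at 19 to 165 counts per mouse. Its means were 1.11 ± 0.388 CPM (SD, n = 12) in young, 1.58 ± 0.771 CPM (SD, n = 13) in old vehicle and 1.48 ± 0.721 CPM (SD, n = 16) in old AP mice, a log2 fold change of 0.52 (95% confidence interval -0.0047 to 1.04, edgeR adjusted p = 0.161) in old vehicle versus young mice.

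The question of the treated arm was whether AP, given to remove p16Ink4a-expressing cells, changed these genes in old mice. By edgeR 0 of 10 members were called in old AP versus old vehicle mice, beside 0.0726% of all genes tested (14 genes) and 0.171% by adjusted p alone. By DESeq2 also 0 were called, beside 0.631% of the 32309 genes that it fitted. The edgeR count over all genes depended on single mice: leaving out 1 mouse gave from 0 (7 of 41 fits) to 405 genes, the latter without old AP mouse 9, with 0 members called in each. At an unadjusted p under 0.05, 4 members passed (Igf2r, Igfbp3, Igfbp4 and Igfbp7), as did 4620 of the 19292 genes. Igf1 differed by a log2 fold change of -0.02, with a 95% confidence interval of -0.24 to 0.21, and Pappa by 0.11 with an interval of -0.18 to 0.41. The difference between old vehicle and young mice was -0.61 (interval -0.86 to -0.37) for Igf1 and -0.70 (interval -1.02 to -0.39) for Pappa. In size, the upper end for Igf1 under AP, 0.21, lay short of that interval, while that for Pappa, 0.41, reached into it. Both comparisons use the same old vehicle mice, and a return to the young level was not tested. All 6 binding proteins had log2 fold changes below 0, with a median of -0.27 where the median of all genes was 0.00, and 9761 of 19292 genes were below 0. Igfbp6 was at -0.54 (interval -1.10 to 0.02, edgeR adjusted p = 0.22), Igfbp3 at -0.35 (interval -0.66 to -0.04, edgeR adjusted p = 0.161), Igfbp4 at -0.30 (interval -0.58 to -0.01, edgeR adjusted p = 0.19) and Igfbp7 at -0.25 (interval -0.46 to -0.04, edgeR adjusted p = 0.148). All 12 tested skeletal muscle markers and all 10 osteoblast markers also had log2 fold changes below 0 in this comparison, with none called. So did 9 of 10 fibroblast and tendon, 8 of 10 endothelial and 8 of 9 osteoclast markers. All 9 B cell, all 8 T cell and 9 of 10 neutrophil markers were above 0, and no marker of these lists was called. With skeletal muscle markers as a covariate Igfbp6 was at -0.47, Igfbp4 at -0.37, Igfbp3 at -0.33 and Igfbp7 at -0.24. With osteoblast markers as a covariate Igfbp6 was at -0.50, Igfbp3 at -0.21, Igfbp7 at -0.16 and Igfbp4 at -0.09, and Igfbp2 was above 0 at 0.02. No member was called in either fit.

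**Figure D3:**
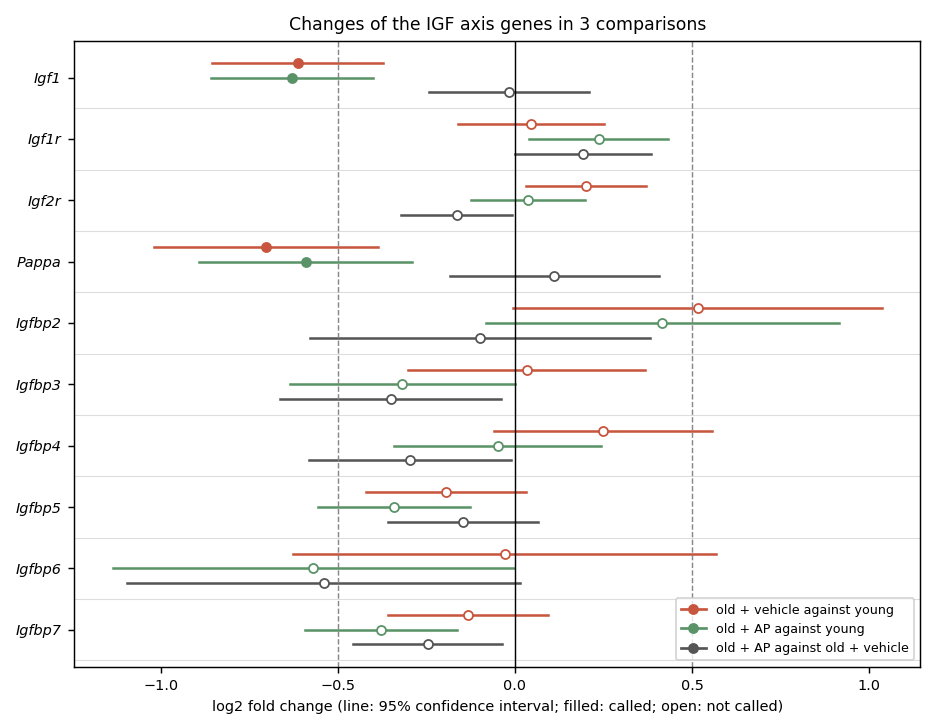
Log2 fold change of each member (horizontal axis) in 3 comparisons, with 95% confidence intervals as lines; filled points were called, and dashed lines mark the fold thresholds. Igf1 and Pappa are filled in both comparisons with young mice, and all 6 binding proteins lie below 0 in old AP versus old vehicle mice (grey).

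Across mice, several members rose and fell together. After the mean of each group was subtracted, 45 pairs of members were compared by the correlation of log2 CPM over the 41 mice, with mice permuted within groups (100000 times) and p-values adjusted over the pairs. Pearson's r and Spearman's rho both passed for 16 pairs, 13 of them positive. The highest rho was that of Igfbp4 with Pappa, the substrate and its protease (r = 0.743, rho = 0.772, permutation p = 1e-05 for each, the smallest that the permutations can give, adjusted p = 0.00015 and 0.000225). Within groups rho was 0.748 in young, 0.758 in old vehicle and 0.665 in old AP mice, and r was 0.764 without the 2 mice farthest from the median of Igfbp4. The pair thus moved together among mice of each group, although Pappa was called lower in both old groups and Igfbp4 in neither. Igfbp3 and Igfbp7 followed (rho = 0.761, r = 0.737, permutation p = 1e-05 for each, adjusted p = 0.000225 and 0.00015), and then Igfbp6 and Igfbp7 (rho = 0.633, r = 0.625, permutation p = 3e-05 and 2e-05, adjusted p = 0.00045 and 0.000225). The 3 negative pairs all involved Igf1r, of which that with Igf2r was the strongest (rho = -0.569, r = -0.575, permutation p = 0.00012 and 8e-05, adjusted p = 0.00135 and 0.00072). All such values share the libraries and their makeup, which is described next.

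**Figure D4:**
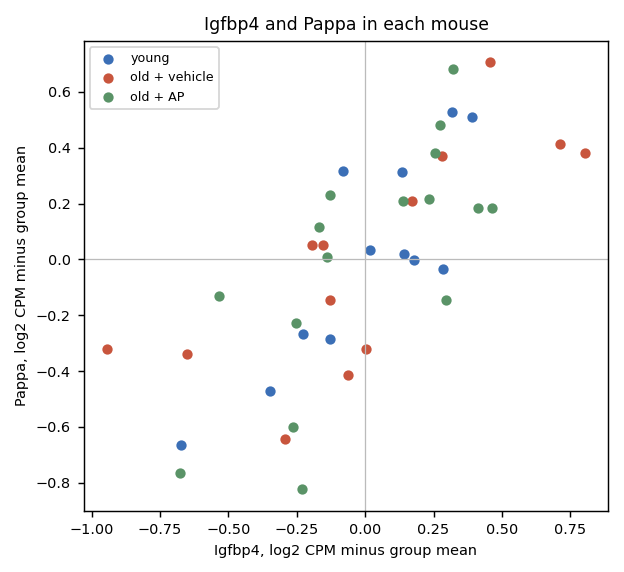
Igfbp4 (horizontal axis) against Pappa (vertical axis) in each of the 41 mice, as log2 CPM minus the mean of the mouse's group, colored by group. The points rise together in all 3 groups, with a Spearman's rho of 0.772 over all mice.

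The members differed in the cell type markers that they followed most closely, although some shared a list. The levels of 14 lists of markers were summarized by their mean log2 CPM, and 150 relations (10 members with 14 lists and with Cdkn2a) were computed in the same way, of which 48 passed by both coefficients. Igfbp4 rose most closely with osteoblast markers (rho = 0.838, r = 0.749, permutation p = 1e-05 for each, adjusted p = 0.000187 and 0.000125). Its protease Pappa rose most closely with marrow stromal cell markers (rho = 0.759, r = 0.714, permutation p = 1e-05 for each, adjusted p = 0.000187 and 0.000125). Within groups this rho was 0.944 in young, 0.83 in old vehicle and 0.547 in old AP mice. Each of these genes also passed with the list of the other. There rho was 0.712 for Igfbp4 with marrow stromal cell markers and 0.667 for Pappa with osteoblast markers. Both genes passed with endothelial, osteoclast and macrophage markers too, and differences between lists were not tested. Igfbp6 followed fibroblast and tendon markers (rho = 0.824, r = 0.783, permutation p = 1e-05 for each, adjusted p = 0.000187 and 0.000125). The 3 genes nearest to Igfbp6 among 15617 were Cd248, Lrrn4cl and Gsn (rho = 0.906, 0.9 and 0.884). Igfbp7 followed endothelial markers (rho = 0.725, r = 0.71) and fibroblast and tendon markers (rho = 0.691, r = 0.713). The receptors ran opposite to each other: with neutrophil markers rho was 0.767 for Igf1r (r = 0.73) and -0.764 for Igf2r (r = -0.753), and with skeletal muscle markers it was -0.631 for Igf1r and 0.606 for Igf2r. In old vehicle mice the rho of Igf1r with neutrophil markers was 0.434, against 0.811 in young and 0.95 in old AP mice. Igf1 and Igfbp2 each passed by both coefficients with 1 marker list. For Igf1 it was that of fibroblast and tendon markers (rho = 0.517, r = 0.613, permutation p = 0.00072 and 2e-05, adjusted p = 0.00432 and 0.000231), and for Igfbp2 that of endothelial markers (rho = 0.45, r = 0.382, adjusted p = 0.0186 and 0.0482 by permutation). Fibroblast and tendon markers were also the list with the highest rho for Igfbp5 (0.537), and endothelial markers that for Igfbp3 (0.646). With the 2 mice farthest from the median of the marker list left out, r was 0.812 for Igfbp4, 0.724 for Pappa, 0.767 for Igfbp6, 0.707 for Igfbp7 (endothelial), 0.811 for Igf1r and -0.694 for Igf2r (both with neutrophil markers) and 0.537 for Igf1. For Igfbp2 with endothelial markers it was 0.335.

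**Figure D5:**
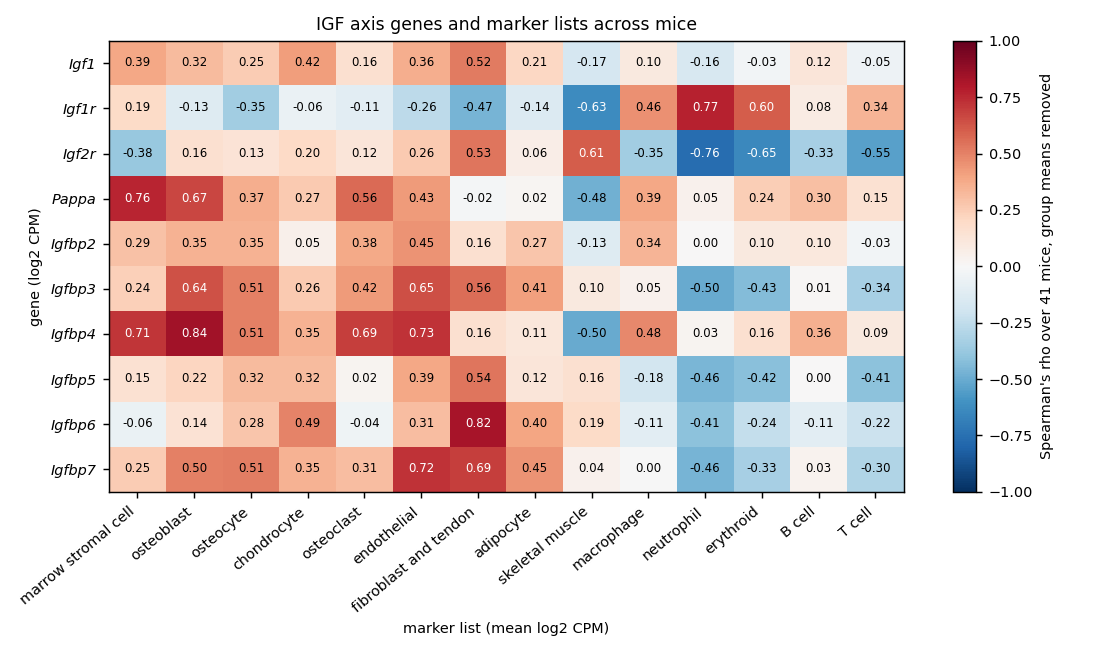
Spearman's rho over 41 mice between each member (rows, log2 CPM) and each of 14 marker lists (columns, mean log2 CPM) after the mean of each group was subtracted; red is positive and blue negative. Igfbp4 is reddest with osteoblast, Pappa with marrow stromal cell and Igfbp6 with fibroblast and tendon markers, and Igf1r and Igf2r have opposite signs with neutrophil and skeletal muscle markers.

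The genes nearest to each member over the 41 mice, by the same group-centered rho and given with no p, differed from member to member. For Igf1 they were Fstl1 (rho = 0.711), Kdelc2 (0.697) and Ang (0.665), lower values than for any other member except Igfbp2 and Igfbp5. Igf1r was nearest to Kdm3b, Arid1a and Hipk1 (rho = 0.883 to 0.872) and Igf2r to Rbfox2, Rgmb and Erc1 (0.83 to 0.801). Among the binding proteins, Igfbp2 was nearest to Sertad1, Rplp2 and Ccdc71 (0.699 to 0.679), Igfbp3 to Ube2e2, Gpc4 and Sgce (0.864 to 0.808) and Igfbp4 to Chst2, Lhfp and Cd1d1 (0.885 to 0.877). Igfbp5 was nearest to Mkx, Zcchc24 and Olfml1 (0.71 to 0.676) and Igfbp7 to Nid1, Prkcdbp and Mcam (0.87 to 0.854). Pappa was nearest to Lama1, Serpina12 and Gpc6 (0.844 to 0.826).

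Around the members, 54 further genes of the pathway were listed, of which 51 were tested. In old vehicle versus young mice 2 were called, both higher, beside 9.06% of all genes. Socs3, an inhibitor of cytokine receptor signaling, rose from a median of 17 CPM (9.45 to 23.5 CPM) in young to 30.7 CPM (17.8 to 68.1 CPM) in old vehicle mice, a log2 fold change of 0.92 (edgeR adjusted p = 0.00114), and 11 of 13 lay above every young mouse. Adamts1, an extracellular protease, rose by 0.52 (edgeR adjusted p = 0.0284), with old vehicle mouse 16 (103 CPM) far above the next of its group (50.4 CPM). Without mouse 16 it was at 0.35 (edgeR adjusted p = 0.0948) and not called, nor was it called without young mouse 33 (0.50), 39 (0.47) or 41 (0.50). With skeletal muscle markers (0.38), with erythroid, neutrophil and B cell markers (0.27) or with marrow stromal markers (-0.04) as covariates Adamts1 was not called either, and Socs3 lost its call with erythroid, neutrophil and B cell markers (0.60, edgeR adjusted p = 0.195). The median log2 fold change of the listed genes was 0.11, where that of all genes was 0.01. In old AP versus young mice 3 were called, beside 8.58% of all genes. Socs3 was again higher (0.74, edgeR adjusted p = 0.00661), as was the low-count receptor gene Insrr (0.91, edgeR adjusted p = 0.0244, 6 to 93 counts per mouse). Socs2, which is induced by growth hormone and dampens its receptor, was lower, at a median of 23.1 CPM (10.7 to 47.5 CPM) against 33.04 CPM (27.2 to 54.0 CPM) in young mice. Its log2 fold change was -0.69 (edgeR adjusted p = 0.00137), with 15 of 16 old AP mice below every young mouse, and in old vehicle versus young mice it was -0.43 (edgeR adjusted p = 0.0545). None of the 3 was called in old AP versus young mice with osteoblast markers or with erythroid, neutrophil and B cell markers as covariates, and Insrr was not called without old AP mouse 28 (0.78, edgeR adjusted p = 0.0508). In old AP versus old vehicle mice 0 of 51 were called by edgeR and 0 by DESeq2, with 8 at an unadjusted p under 0.05, where 4620 of all 19292 genes had such a p.

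By role, calls in old vehicle versus young mice were counted in each list, where 9.06% of all genes tested were called. Of 12 tested extracellular genes 1 was called in old vehicle versus young mice (Adamts1), of 8 in the growth hormone arm 1 (Socs3), of 12 receptors and adaptors 0 and of 19 genes of the PI3K-AKT-mTOR-FOXO arm 0. By adjusted p alone 12 of the 51 passed, 10 higher and 2 lower, beside 19.4% of all genes. They included Irs2, an adaptor of the insulin and IGF1 receptors (log2 fold change 0.47, edgeR adjusted p = 0.0278), and the kinase gene Akt2 (0.45, edgeR adjusted p = 0.00696). The second ligand gene, Igf2, did not pass: it was at 43.2 ± 9.58 CPM (SD, n = 12) in young, 54.6 ± 19.6 CPM (SD, n = 13) in old vehicle and 49.0 ± 22.8 CPM (SD, n = 16) in old AP mice (edgeR adjusted p = 0.356 for old vehicle versus young). Igfbp1, a binding protein of liver, had at most 1 count in any mouse. Igfals, the liver-made partner of circulating IGFBP3, was at 1.61 ± 0.556 CPM in young mice (SD, n = 12) and was not called in any comparison. Nor were the receptor genes Ghr (log2 fold change -0.16 in old vehicle and -0.38 in old AP versus young mice) and Insr (0.15 and 0.11), the adaptor Irs1 (-0.19 and -0.42), the PAPP-A inhibitors Stc1 (0.03 and -0.12) and Stc2 (-0.07 and -0.23), or Pappa2 (-0.10 and -0.34).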

How the data were processed

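RNA of tibial diaphyses from 41 INK-ATTAC mice was sequenced, and the authors deposited raw read counts for 43346 genes, 1 column per mouse. The submitters' processing notes name TopHat2 2.0.6, HTSeq and GRCm38. The strand setting is not given in the sources used here. The 37 mitochondrial genes are at 0 in every mouse.

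From the deposited counts, edgeR 4.0.16 in R 4.3.3 gave TMM-normalized CPM, a filter by expression (19292 genes kept) and a quasi-likelihood F test in 1 model of the 3 groups, after tests on simulated data. Log2 CPM used a prior count of 2. CPM per kb used the exon length in the table. DESeq2 1.42.0 was an alternative, and others changed the size factors, the filter, the groups fitted, the dispersion, the fold threshold, marker covariates and single mice. Correlations used SciPy 1.17.1. Promoter windows are from RefSeq (GRCm38.p6), and gene ends from GENCODE M21.

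The members and gene lists were chosen with earlier results of these data known. Named were all members, pathway genes that were called, 10 pathway genes fixed by name (Igf2, Igfbp1, Igfals, Ghr, Irs1, Irs2, Insr, Stc1, Stc2 and Pappa2), and the 3 genes nearest to each member with an average of at least 1 CPM. Akt2, as an example of a gene past the adjusted p, was chosen after its values were seen. A result for 1 pathway gene is not reported here.

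Total counts were at least 37028959 per mouse, so that counting error is small for all members but Igfbp2. The labels give each mouse its own number, and mice were used as replicates. The labels and the study's text differ on ages, and the labels' ages are given.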

Additional observations from a re-analysis of the deposited data

How the results depend on the processing

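Of 1500 refits of a member's log2 fold change, 1459 kept their direction and their side of the call rule, 8 lost the call with the same sign, 3 gained it and 30 changed sign, 1 of which (Pappa) also lost the call. Leaving out the 41 mice one at a time, the counts of members called stayed at 2, 0 and 2 in old vehicle versus young, old AP versus old vehicle and old AP versus young mice. Of the 19233 to 19366 genes tested in these fits, 789 to 980 were called lower in old vehicle versus young mice. In old AP versus young mice 823 to 1060 were called lower, and in old AP versus old vehicle mice 0 to 405 were called. The 18 changes of sign among these fits fell on genes not called, and their ranges crossed 0: in old vehicle versus young mice Igfbp3 (-0.03 to 0.08) and Igfbp6 (-0.11 to 0.2, highest without young mouse 40), in old AP versus old vehicle mice Igf1 (-0.06 to 0.05) and Igfbp2 (-0.24 to 0.02), and in old AP versus young mice Igf2r (-0.01 to 0.06). DESeq2, its size factors, no filter, fits of 2 groups, robust dispersion and muscle covariates kept 2, 0 and 2 members called. In old vehicle versus young mice these fits called from 6.01% (no filter) to 9.89% (2 groups) of all genes. In old AP versus young mice they called from 5.52% (no filter) to 10.1% (muscle covariates). In old AP versus old vehicle mice the share was 0% with no filter and with 2 groups, and at most 0.631% (DESeq2).

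Without the fold threshold, 4 members passed in old AP versus young mice. With erythroid, neutrophil and B cell covariates 1 member was called in old vehicle versus young mice (Igfbp4, higher), beside 3.98% of all genes, and 0 in old AP versus young mice, beside 2.38%. With osteoblast covariates the latter count was 0, beside 3.93% of all genes, and with marrow stromal covariates, added after the data had been seen, it was 1 (Igf1), beside 17.9%. The changes of sign outside the left-out mice were these. With erythroid, neutrophil and B cell covariates, Igf1r (-0.05), Igfbp6 (0.19) and Igfbp7 (0.03) turned in old vehicle versus young mice, and Igfbp4 (0.29) in old AP versus young mice. With osteoblast covariates, Igf1r was at -0.02 in old vehicle versus young mice, Igf1 at 0.05 and Igfbp2 at 0.02 in old AP versus old vehicle mice, and Igfbp3 at 0.07 and Igfbp4 at 0.42 in old AP versus young mice. With marrow stromal covariates, Igf2r was at -0.13, Igfbp4 at 0.45 and Pappa at 0.01 in old AP versus young mice. The cause was not tested.

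The pathway genes called in old vehicle versus young mice (2) were 12 without the fold threshold, 1 with muscle covariates, 3 with osteoblast covariates, 0 with erythroid, neutrophil and B cell covariates and 1 with marrow stromal covariates. With 1 mouse left out they numbered 1 to 5, with 1 without young mice 33, 39 or 41 or old vehicle mouse 16, 4 without young mouse 32 or old vehicle mouse 2, and 5 without young mouse 40 or old vehicle mouse 20. In old AP versus young mice (3) they were 7 without the fold threshold, 0 with erythroid, neutrophil and B cell covariates, 0 with osteoblast covariates and 5 with marrow stromal covariates (of 51, with the shares of all genes given above), and 2 to 3 with 1 mouse left out. With no filter on low counts 3 of 54 were called higher and 1 lower in that comparison, beside 5.52% of all genes. All alternatives for the pathway genes other than DESeq2 were chosen once the data were known. No paired analysis was possible because the mice carry numbers of their own, with none shared between groups.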

Other observations

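Some members also varied with Cdkn2a, the gene whose promoter drives the transgene. Its level was 0.596 ± 0.307 CPM (SD, n = 12) in young, 2.78 ± 2.02 CPM (SD, n = 13) in old vehicle and 1.75 ± 1.70 CPM (SD, n = 16) in old AP mice. Old AP mouse 24 (7.29 CPM) stood far above the next (3.59 CPM), in a group with a median of 1.1 CPM. Cdkn2a was read at 8 to 53 counts per mouse in young, 19 to 333 in old vehicle and 22 to 355 in old AP mice. With group means subtracted, its rho over 41 mice was 0.57 with Igfbp2 (r = 0.555, permutation p = 0.00025 and 0.00032, adjusted p = 0.00195 and 0.002), 0.552 with Igfbp4 (r = 0.583, permutation p = 0.00051 and 0.0002, adjusted p = 0.00348 and 0.0013) and 0.494 with Igfbp3 (r = 0.468, permutation p = 0.00212 and 0.00431, adjusted p = 0.00975 and 0.0158), the p of rho given first. Without the 2 mice farthest from the median of Cdkn2a, r was 0.483, 0.627 and 0.498. Igfbp4 and Igfbp3 had higher rho with marker lists (0.838 with osteoblast and 0.646 with endothelial markers), while Igfbp2 did not (0.45 with endothelial markers). These relations were not adjusted for the makeup of the bone. The relation of Igfbp2 was alike in the 3 groups (rho = 0.538, 0.522 and 0.512), while that of Igfbp3 was 0.14 in young and 0.813 in old vehicle mice, a difference that was not tested. With Igf1 no relation was detectable (rho = 0.0223, r = 0.057, permutation p = 0.892 and 0.735, adjusted p = 0.93 and 0.826).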
